A study of Triticum turgidum subsp. durum with 96 samples.

Results

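The miR167 family, whose plant members guide the silencing of the auxin response factor mRNAs ARF6 and ARF8, was measured in developing heads and flag leaves of durum wheat. Its members here are all mature sequences of the conserved miRNA table whose first miRBase name is MIR167, whatever letter follows and whatever the species, which gave 8 of the 110 listed sequences, in a table of 50 families. The choice went by name alone, but it was made with earlier results of these data known, in a table already filtered by level. All 8 are described.

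The libraries came from 4 genotypes, of which Tamaroi and Yawa are classed as tolerant of water deficit stress and EGA Bellaroi and Tjilkuri as sensitive. Plants were held for 15 days at 6% soil water content (water deficit group, WG) or at 12% (control group, CG), in 2 growing seasons. A head and a flag leaf library with the same genotype, treatment and replicate label were taken to come from 1 plant. This gives 48 plants and 96 libraries, in 16 groups of 6 plants with 3 plants per season. Tolerant genotypes are compared with sensitive ones only in the pairs Tamaroi with EGA Bellaroi and Yawa with Tjilkuri, and levels are given as RPM, reads per 1000000 trimmed small RNA reads of a library.

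In plants a miRNA precursor is cut into a short duplex of a 5p and a 3p strand, and the strand that stays in the silencing complex finds mRNAs by near-perfect pairing. In Arabidopsis the 5p strand of miR167 pairs with ARF6 and ARF8 mRNAs, which encode transcription factors that switch on auxin-responsive genes and are needed for stamens, ovules and flower maturation. The opposite 3p strand is usually degraded and has fewer known roles. No mRNA was measured in these libraries, so the ARF transcripts and marker genes of the tissues could not be examined, although all 96 libraries resembled the mean miRNA profile of their labelled tissue more than that of the other.

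The 4 guide-strand (5p) sequences are shown because the levels below divide among forms that differ only at their 3′ end. Capitals mark the seed, bases 2 to 8, and letters are DNA letters as in the deposited table.
Gma-miR167g: tGAAGCTGccagcatgatctga
Zma-miR167e: tGAAGCTGccagcatgatctg
Zma-miR167b: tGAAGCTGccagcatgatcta
Ath-miR167d: tGAAGCTGccagcatgatctgg
All 4 forms share their first 20 bases and the seed GAAGCTG, which is the seed of none of the 102 listed sequences outside the family. Any pair of them differs by 1 or 2 terminal bases, length included. The names are miRBase names from soybean (Gma), maize (Zma) and Arabidopsis (Ath), and each stands for a durum wheat read population that matched that sequence.

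The 4 other members are shown because the largest tissue differences of the family lay among them, and because they have 4 different seeds, again in capitals.
Bdi-miR167e: aGGTCATGctggagtttcatc
Osa-miR167e: aGATCATGttgcagcttcact
Zma-miR167j: gATCATGTggcagtttcatt
Zma-miR167a: gATCATGCatgacagcctcatt
The table gives them no strand name, so each listed sequence was paired with Zma-miR167e. With pairing that allows bulges, the duplexes of Osa-miR167e (-29.3 kcal/mol), Bdi-miR167e (-29.0), Zma-miR167j (-28.3) and Zma-miR167a (-22.6) were the 4 most stable of the 110, ahead of -17.4 kcal/mol for Zma-miR166m, the best outside the family. The name 3p was given here to the members that do not share the leading bases of Zma-miR167e, and the pairing is set beside it as a description. With pairing that allows no bulge only Bdi-miR167e (15 pairs) and Osa-miR167e (14 pairs) exceeded every sequence outside the family, whose best had 13 pairs, and Zma-miR167a had 10. Bdi stands for Brachypodium distachyon and Osa for rice.

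**Figure D1:**
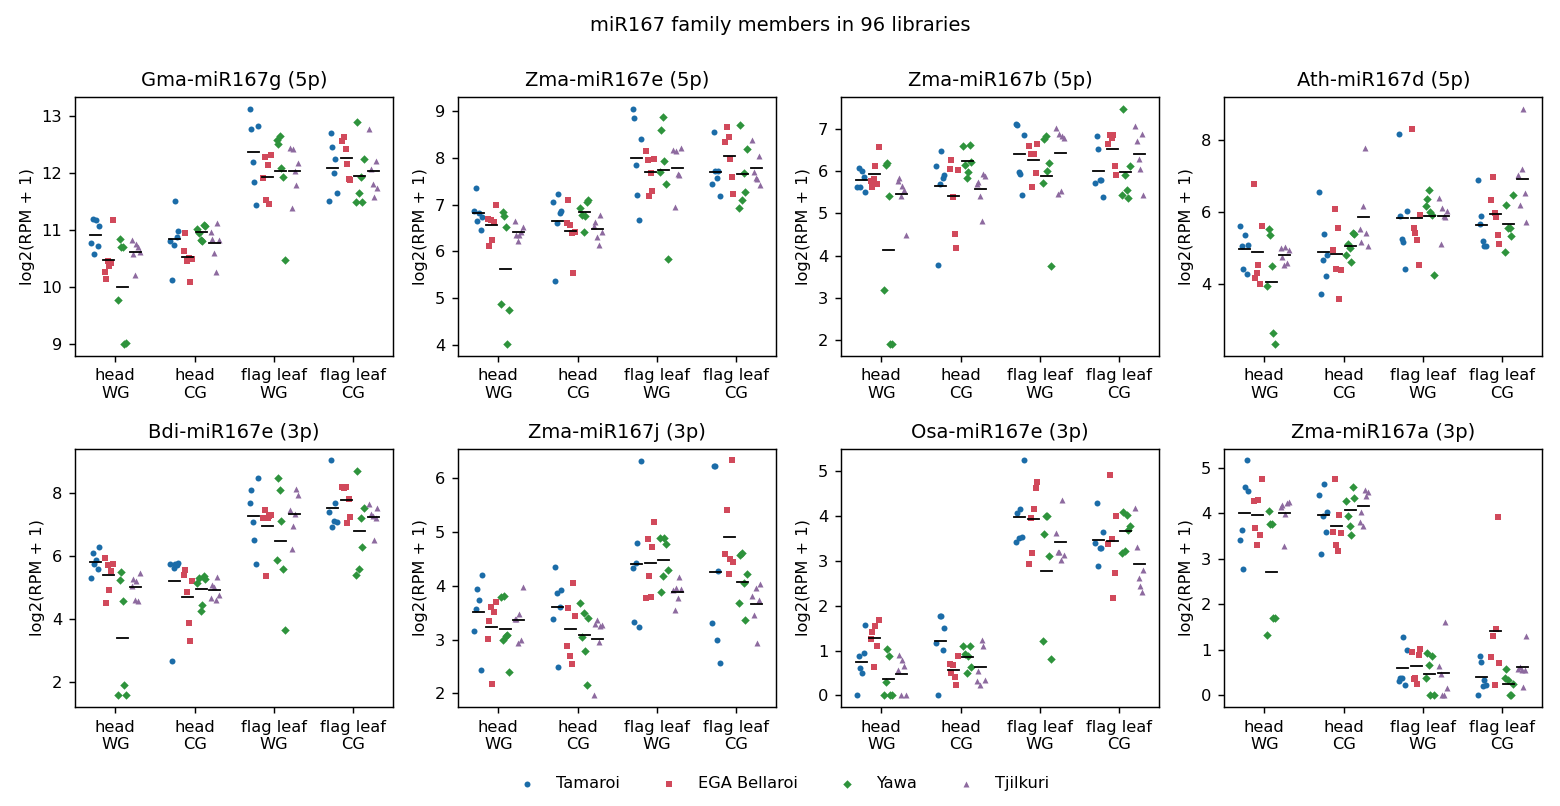
Level of each miR167 member in the 96 libraries, as log2(RPM + 1) on the vertical axis of each panel, by tissue and treatment (WG, water deficit; CG, control) with 1 point per library, colour and shape for genotype, and short bars for the mean of 6 libraries. Zma-miR167a is the only member that is higher in heads, and 3 Yawa heads of the water deficit group lie low in every panel but that of Zma-miR167j.

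Gma-miR167g carried most of the family. Its level was 511 to 2927 RPM in the 48 heads (median 1699) and 1414 to 8974 RPM in the 48 flag leaves (median 4439), which made it the 4th most abundant of the 110 sequences in heads and the 3rd in flag leaves. It supplied 87.4% ± 2.97 of the family sum in heads and 88.4% ± 2.71 in flag leaves (SD, n = 48 each). The family as a whole took 11.8% ± 2.19 of all listed miRNA reads in heads and 14.8% ± 3.75 in flag leaves.

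The remaining guide forms were present in every library. Zma-miR167e averaged 94.6 ± 30.0 RPM in heads and 242 ± 103 RPM in flag leaves (SD, n = 48 each here and for the next forms). Zma-miR167b averaged 52.9 ± 22.3 RPM in heads and 82.5 ± 35.0 RPM in flag leaves, and Ath-miR167d 36.8 ± 33.6 RPM in heads and 78.8 ± 80.4 RPM in flag leaves. All 3 were on average less abundant in heads, with overlapping ranges. Reads were matched with up to 2 mismatches allowed, and the sources used here do not say how a read that fits several forms was assigned, so the division among these near-identical forms is uncertain. Their sum does not depend on the division among these forms, and the nearest listed sequence outside the family differs at 10 or more positions. Whether reads went to forms that are not listed was not tested.

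The 3p strands made up 3.14% ± 0.847 of the family sum in heads and 3.91% ± 1.47 in flag leaves. Bdi-miR167e was the main one, with 1.96 to 77.7 RPM in heads (median 37.0) and 11.5 to 528 RPM in flag leaves (median 153). Zma-miR167j stood at 2.90 to 19.5 RPM in heads (median 9.36) and at 4.94 to 79.0 RPM in flag leaves (median 17.2).

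Osa-miR167e and Zma-miR167a were each close to absent in 1 tissue. Osa-miR167e had 0 to 2.42 RPM in heads (median 0.675) and 0.749 to 36.6 RPM in flag leaves (median 9.86). Zma-miR167a ran the other way, with 1.53 to 34.8 RPM in heads (median 14.5) and 0 to 14.1 RPM in flag leaves (median 0.348). In rank terms Osa-miR167e was the last of the 110 sequences in heads, and Zma-miR167a the last in flag leaves.

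The low ends of both rest on few reads. Osa-miR167e was at 0 in 7 heads, where a count of 0 allows up to 0.584 to 4.92 RPM (3 reads at the depth of each library), and Zma-miR167a was at 0 in 7 flag leaves, which allows up to 0.424 to 1.11 RPM. These limits cover counting error only. Zma-miR167a exceeded 2 RPM in 47 heads and 2 flag leaves, and Osa-miR167e in 3 heads and 46 flag leaves, so each met the study's filter (over 2 RPM in at least 48 libraries) almost wholly through the tissue in which it is high. A sequence that passed in that way had to differ between the tissues, so the tissue values of these 2 members are given as a description, with no test, and their calls support nothing. The other 6 members exceeded it in 95 or 96 libraries.

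Depth, read from the RPM value of 1 read in each library, was 0.61 to 36.12 M reads (median 5.22 M), with a median of 4.1 M in heads and 6.4 M in flag leaves and 4 libraries under 1 M (M, mega). The listed miRNAs together took 5514 to 23778 RPM in heads and 13510 to 62618 RPM in flag leaves, and the median change of all 110 sequences, head minus flag leaf, was -0.98 on the log2(RPM + 1) scale. The 3 lowest heads were 3 of the 6 Yawa heads of the water deficit group (replicates 1a, 2b and 2c), at 5514 to 7879 RPM, and values without them are given for the tissue and water deficit comparisons in which they change a call or a direction. In such bulk samples fewer cells of a type and less RNA per cell cannot be told apart.

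The first comparison asked how each member differs between the tissues at the same genotype and treatment. Averaged over the 8 genotype and treatment combinations, the 6 members whose entry did not depend on 1 tissue were all called lower in heads, where 72.7% of all sequences were called lower and 17.3% higher. Changes are log2 differences of log2(RPM + 1), head minus flag leaf, tested with limma, and adjusted p-values (Benjamini-Hochberg) run over all 110 sequences of a comparison with a threshold of 0.05. The scale understates the changes of members with few reads.

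Zma-miR167a, given as a description, had a change of +3.22 and a ratio of head to flag leaf group means between 4.21 and 78.3. The smallest ratio came from control plants of EGA Bellaroi, where 1 flag leaf (replicate 2b) held 14.1 RPM against 0.961 ± 0.632 RPM (SD, n = 5) in the others of its group and at most 2.08 RPM in the other 47 flag leaves. Without that library the change in EGA Bellaroi controls was +2.82, against +2.32 with it.

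Osa-miR167e, also as a description, had a change of -2.68 and a ratio of head to flag leaf group means of 0.0414 to 0.141. Bdi-miR167e, the most abundant 3p strand, was lower by the test, with -2.25 (SE 0.19, adjusted p = 9.33e-19), lower in the head of 47 of 48 plants. Its group means in heads were 18.4 to 57.0 RPM, against 137 to 230.0 RPM in flag leaves.

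The abundant guide forms fell less. Gma-miR167g changed by -1.46 (SE 0.10, adjusted p = 4.77e-25) and Zma-miR167e by -1.32 (SE 0.13, adjusted p = 1.52e-16), and both were lower in the head of every one of the 48 plants. These values lie 0.47 and 0.34 below the median change of all sequences. Ath-miR167d (-1.03, SE 0.18, adjusted p = 2.81e-07), Zma-miR167j (-0.99, SE 0.14, adjusted p = 1.81e-09) and Zma-miR167b (-0.72, SE 0.16, adjusted p = 4.28e-05) lay between 0.05 below and 0.26 above that median.

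**Figure D2:**
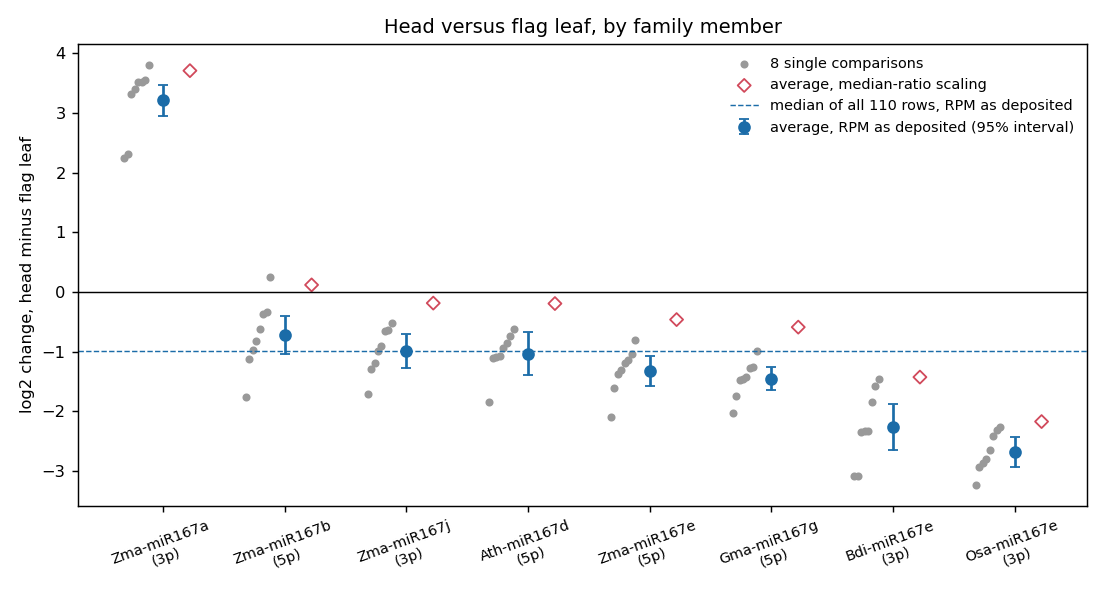
Log2 change of each miR167 member, head minus flag leaf. Grey points are the 8 genotype and treatment combinations, blue circles their average with a 95% interval, red diamonds the average after median-ratio scaling of the libraries, and the dashed line (-0.98) the median of all 110 sequences. Zma-miR167a stands at +3.22 and Osa-miR167e at -2.68, while Zma-miR167b, Zma-miR167j and Ath-miR167d lie near the dashed line and near 0 after scaling.

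Because the median moved, the comparison was repeated after scaling each library to the median ratio of the listed miRNAs, which brought the median change to -0.20. Zma-miR167a then stood at +3.71 and Osa-miR167e at -2.17. Bdi-miR167e (-1.42), Gma-miR167g (-0.59) and Zma-miR167e (-0.46) kept their direction and their call. Ath-miR167d (-0.19, adjusted p = 0.264) and Zma-miR167j (-0.18, adjusted p = 0.273) no longer passed the threshold. Zma-miR167b changed sign (+0.12, adjusted p = 0.344). Over all sequences the calls were 19 higher and 80 lower with RPM as deposited, against 37 higher and 52 lower after scaling.

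The directions were the same within each season, and the 6 tested members passed the threshold in both. As a description, Zma-miR167a had +3.28 in season 2 and +3.15 in season 1, and Osa-miR167e -2.59 in season 2 and -2.77 in season 1. Gma-miR167g had -1.26 in season 2 and -1.65 in season 1. Whether the tissue difference itself differed between seasons was not tested.

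Taken comparison by comparison, these 6 members were called in 32 of 48 tests (36 at an unadjusted p under 0.05), all lower, against 62.5% of all 880 tests (10.9% higher, 51.6% lower). Gma-miR167g, Zma-miR167e and Bdi-miR167e were called lower in all 8 comparisons, Zma-miR167j in 5, Zma-miR167b in 2 (Yawa WG and EGA Bellaroi CG) and Ath-miR167d in 1 (Yawa WG). The remaining 16 calls, 8 higher for Zma-miR167a and 8 lower for Osa-miR167e, follow from how both entered the table, and nothing is read from them. After median-ratio scaling Gma-miR167g was called lower in 7, Bdi-miR167e in 6, Zma-miR167e in 3, and Zma-miR167j and Ath-miR167d in 0. Zma-miR167b was then called higher in 1. Of all listed sequences, 24 to 30 were called higher and 31 to 38 lower in each scaled comparison.

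In Yawa WG 3 members lost their call when the low Yawa heads were left out. Gma-miR167g (-1.29 without them and -2.03 with them) and Zma-miR167e (-1.02 without them and -2.10 with them) also moved but kept theirs. In Yawa WG, Zma-miR167b stood at +0.04 (adjusted p = 0.956) without them and at -1.76 (adjusted p = 0.000620) with them. Ath-miR167d stood at -0.76 (adjusted p = 0.287) without them and at -1.84 (adjusted p = 0.00115) with them. Bdi-miR167e stood at -1.37 (adjusted p = 0.0502) without them and at -3.08 (adjusted p = 9.16e-07) with them. Over the 8 comparisons the 6 members were then called in 34 of 48 tests, all lower, and their averages of -2.04 (Bdi-miR167e) to -0.49 (Zma-miR167b) all kept their call.

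With the plant as a block, since head and flag leaf of a plant belong together, Ath-miR167d was lower in all 8 (adjusted p from 0.000292 to 0.0396 in the 7 added), Zma-miR167b was also lower in Tjilkuri WG (adjusted p = 0.0277, against 0.0601 without the block) and Zma-miR167j in Tamaroi CG (0.0454, against 0.160). Heads and flag leaves were fully apart in 7 comparisons for the family sum, 6 for Gma-miR167g, 5 for Bdi-miR167e, 4 for Zma-miR167e, 3 for Zma-miR167j, 1 for Ath-miR167d and 0 for Zma-miR167b. All of these were lower in heads, against 33.5% of all tests without overlap in that direction. In the other direction 7.27% of all tests had no overlap, and 40.8% in either.

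The group means of the family sum separated the tissues, although single libraries overlapped, with 546 to 3289 RPM in heads and 1532 to 10159 RPM in flag leaves. The 16 group means ran from 6449 ± 2777 RPM in Tamaroi WG flag leaves to 4591 ± 1099 RPM in EGA Bellaroi WG flag leaves, and then from 2277 ± 220.2 RPM in Yawa CG heads to 1332 ± 732 RPM in Yawa WG heads (SD, n = 6 each). Between neighbours in that order only the step from the lowest flag leaf group to the highest head group exceeded the pooled SD, and only there did the libraries not overlap. The head to flag leaf ratio of the sum was 0.253 to 0.478 over the 8 combinations, against 0.391 to 0.632 for all listed miRNAs outside the family. Without the 3 low heads the Yawa WG heads averaged 1983 ± 128 RPM (SD, n = 3), and their ratio to the flag leaves was 0.378, against 0.253 with them.

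To see whether strands of the family changed in proportion, each member was also taken relative to Zma-miR167e in the same library. By this measure the tested members were called in 9 of 40 tests (10 unadjusted), against 49.5% of tests of all sequences (32.9% higher, 16.6% lower). As a description, Zma-miR167a stood at 3.92 to 4.91 on the log2 scale, and Osa-miR167e at -2.04 in Tamaroi WG, its lowest value, and -0.31 in Yawa WG (-1.02 without the low heads). Bdi-miR167e was lower in 6, with values of -1.49 to -0.95, and Yawa WG was one of them only with the low heads (-0.35, adjusted p = 0.414, without them and -0.98 with them). The ratio of Bdi-miR167e to Zma-miR167e was 0.358 ± 0.134 in heads and 0.707 ± 0.280 in flag leaves (SD, n = 48 each).

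Among the guide forms, fewer of these relative changes were called. Gma-miR167g and Ath-miR167d were called in 0 of 8 comparisons each relative to Zma-miR167e, as was the 3p strand Zma-miR167j. Zma-miR167b was relatively higher in heads in 3 comparisons (Yawa CG +1.06, EGA Bellaroi WG +0.80, Tamaroi CG +0.67), and in 5 without the low heads. Its share of the 5p sum was 2.74% ± 0.937 in heads and 1.62% ± 0.411 in flag leaves (SD, n = 48 each).

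The next comparison, water deficit against control in the same genotype and tissue, addressed the stress response of the family. In 7 of the 8 comparisons no member was called. In Yawa heads 5 members were called lower, which makes 5 of 64 tests (8 unadjusted), against 6.93% of all tests. In Yawa heads alone 61 of the 110 sequences were called lower and none higher, that is 55.5%, so a fall there is not particular to the family.

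Zma-miR167b in Yawa heads was at 2.75, 25.0 and 72.2 RPM (lowest, median and highest) under water deficit and at 56.4, 71.7 and 98.3 RPM in the control, a change of -2.11 (SE 0.51, adjusted p = 0.00451). Bdi-miR167e was at 1.96, 12.8 and 44.2 RPM under water deficit and at 17.9, 35.8 and 40.1 RPM in the control (-1.56, SE 0.52, adjusted p = 0.0154). Zma-miR167a was at 1.53, 7.44 and 15.6 RPM under water deficit and at 10.6, 16.3 and 23.1 RPM in the control (-1.34, SE 0.39, adjusted p = 0.00778). In each of them the water deficit group spread wide and overlapped the control group.

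Zma-miR167e was at 15.2, 59.6 and 114 RPM in Yawa heads under water deficit and at 84.8, 115 and 135 RPM in the control (-1.21, SE 0.33, adjusted p = 0.00558). Gma-miR167g was at 511, 1269.7 and 1832 RPM under water deficit and at 1782, 2021 and 2184 RPM in the control (-0.95, SE 0.24, adjusted p = 0.00554). The median change of all 110 sequences in Yawa heads was -0.99, and the 5 called members ranged from 1.12 below to 0.04 above it. Not called were Ath-miR167d (adjusted p = 0.0780), Osa-miR167e (-0.49, adjusted p = 0.0879) and Zma-miR167j (+0.10, adjusted p = 0.793).

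**Figure D3:**
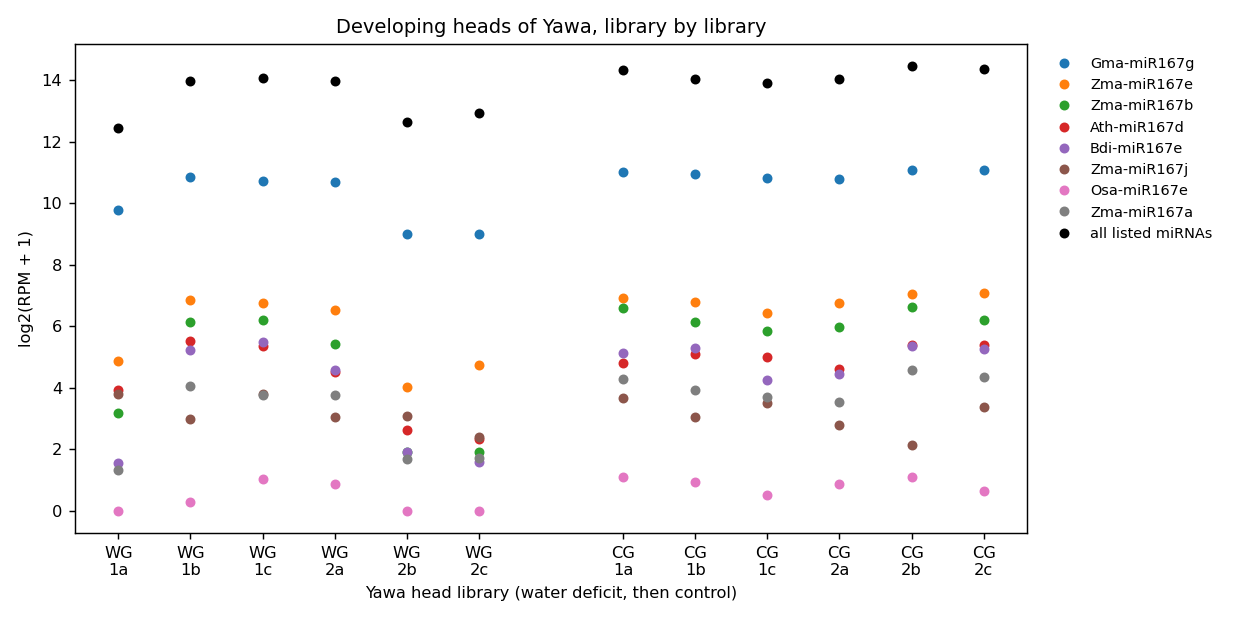
Each miR167 member and the sum of all listed miRNAs, as log2(RPM + 1), in the 12 Yawa head libraries, 6 of the water deficit group (WG) on the left and 6 of the control group (CG) on the right. In WG libraries 1a, 2b and 2c the members other than Zma-miR167j lie low together with the sum of all listed miRNAs (5514 to 7879 RPM).

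These calls rested on the 3 low libraries named above. The family sum was 546 to 937 RPM in them, 1867 to 2120 RPM in the other 3 heads of the water deficit group and 2013 to 2523 RPM in the control heads. Depths were 3.97 to 4.58 M reads in the low 3, 2.85 to 4.75 M in the other 3 and 3.47 to 9.54 M in the control heads, which overlap. The sum of all listed miRNAs was 5514 to 7879 RPM in the low 3, 16001 to 17125 RPM in the other 3 and 15259 to 22398 RPM in the control heads. Without the low 3, a choice made after the data were seen, 0 members were called in Yawa heads and their changes lay between -0.32 and +0.20, with adjusted p of at least 0.947. Of all 110 sequences 0 were then called in Yawa heads (3 unadjusted). Leaving out 1 of the 3 at a time kept 4 calls, Bdi-miR167e being the one lost (adjusted p = 0.0715 without 1a, 0.0609 without 2b and 0.0686 without 2c). Leaving out replicate 1a, 2b or 2c from every group, or fitting only the groups compared, gave 0 calls.

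Members did not fall evenly in those 3 libraries. Zma-miR167j stood at 4.28 to 12.9 RPM in them, within the 3.46 to 11.8 RPM of the control heads but for its highest value. Zma-miR167b made up 0.505% to 0.876% of the 5p sum in them, against 2.30% to 3.82% in the other 3 heads of the water deficit group and 2.84% to 4.17% in the control heads. After median-ratio scaling 2 of all listed sequences were called higher in Yawa heads and 11 lower. Zma-miR167b (-1.16, adjusted p = 0.0290) was the 1 member among them. Zma-miR167j then stood at +1.10 (adjusted p = 0.0631) and Gma-miR167g at +0.12. Season 1 alone gave 0 calls of members and season 2 alone, with 2 of the low libraries, gave 6.

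In flag leaves no member was called under water deficit in any genotype. Averages over the 4 genotypes lay between -0.33 (Bdi-miR167e) and +0.15 (Osa-miR167e), with 0 unadjusted p under 0.05 and 0% of all sequences called. Averaged over the heads of the 4 genotypes, the members lay between -0.48 (Ath-miR167d) and +0.09 (Zma-miR167j), with 0 called, as for all sequences (0%), and 1 unadjusted p under 0.05 (Gma-miR167g, -0.27, adjusted p = 0.395). Without the 3 low Yawa heads they lay between -0.21 (Ath-miR167d) and +0.39 (Bdi-miR167e, adjusted p = 0.846, against -0.04 with them), Gma-miR167g stood at -0.0824, and 0 had an unadjusted p under 0.05. Relative to Zma-miR167e no member was called in any of 56 tests (6 unadjusted), against 0.344% of all sequences.

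Ath-miR167d in Tjilkuri heads is the 1 case among the members in which treated and control libraries did not overlap. Its heads held 22.2 to 31.7 RPM under water deficit (median 27.7) and 32.5 to 221 RPM in the control (median 43.3), against 0.455% of all tests without overlap in that direction, 0.227% in the other and 0.682% in either. The change of -1.05 (SE 0.50) had an unadjusted p of 0.0405 and an adjusted p of 0.991. In Tjilkuri flag leaves the same form had -1.03 (adjusted p = 0.822).

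Ath-miR167d was high in single plants of several groups. Its share of the 5p sum was 14.3% in the head and 12.3% in the flag leaf of 1 control plant of Tjilkuri (replicate 2a), and 7.25% in the head and 7.01% in the flag leaf of 1 water deficit plant of EGA Bellaroi (replicate 1a). A further 2 plants had over 4% in the head, namely a Tamaroi control (1a) with 4.44% in the head and 3.62% in the flag leaf and a Tjilkuri control (1c) with 4.08% in the head and 3.66% in the flag leaf. In the other 44 plants the share was 0.735% to 2.97% in heads and 0.616% to 2.88% in flag leaves. Both organs of a plant were thus high together in these 4 plants.

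**Figure D4:**
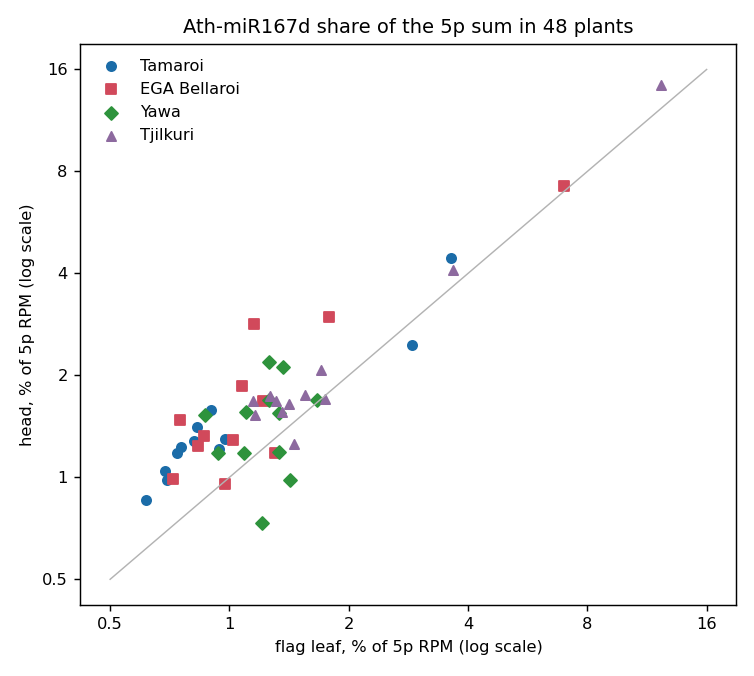
Share of Ath-miR167d in the summed RPM of the 4 guide forms in each of 48 plants, head on the vertical axis against flag leaf on the horizontal axis, both in percent on a log scale, with the line of equality in grey and colour and shape for genotype. The plants with 14.3% and 7.25% in the head also have the highest flag leaf shares, 12.3% and 7.01%.

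Across the 48 plants the share of Ath-miR167d in the head went with that in the flag leaf (Spearman's rho 0.687, and 0.594 in the 44 other plants). The corresponding rho was 0.519 for Zma-miR167e and -0.063 for Zma-miR167b. These are descriptions over points that share the genotype, the season and the denominator of the share.

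Tolerant genotypes were compared with their sensitive partner within each tissue and treatment. Members were called in 3 of 64 tests (9 unadjusted), against 4.89% of all tests (1.25% higher, 3.64% lower), and all 3 were lower in Yawa than in Tjilkuri heads under water deficit, where 29.1% of all sequences were called. They were Bdi-miR167e (-1.62, SE 0.52, adjusted p = 0.0297), Zma-miR167a (-1.29, SE 0.39, adjusted p = 0.0297) and Zma-miR167b (-1.33, SE 0.51, adjusted p = 0.0485). The same 3 low Yawa libraries enter here, and without them, or without any 1 of them, 0 members were called. Without all 3, Bdi-miR167e (+0.0845) and Zma-miR167b (+0.47) changed sign.

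In the other 7 comparisons of genotypes no member was called. In 0 of the 64 tests were the libraries of a member without overlap, against 1.25% of all tests. Among control heads the same contrast gave +0.66 for Zma-miR167b (adjusted p = 0.583), +0.04 for Bdi-miR167e (adjusted p = 0.963) and -0.09 for Zma-miR167a (adjusted p = 0.934). Whether the response to water deficit differed within a genotype pair was tested directly, and 0 of 32 tests were called (8 unadjusted), against 0.455% of all tests.

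Over both tissues and pairs at once, the interaction of tolerance and treatment called Osa-miR167e alone of the 8 members (-0.70, SE 0.28, adjusted p = 0.0498, also the 1 unadjusted p under 0.05), against 25.5% of all sequences, all of them lower. In the tolerant genotypes its group means were 16.6 RPM (WG) and 10.5 RPM (CG) in Tamaroi flag leaves and 8.40 RPM (WG) and 12.0 RPM (CG) in Yawa flag leaves. In the sensitive ones they were 15.9 RPM (WG) and 12.1 RPM (CG) in EGA Bellaroi flag leaves and 10.3 RPM (WG) and 7.53 RPM (CG) in Tjilkuri flag leaves. In flag leaves the water deficit mean was thus above the control mean in Tamaroi and below it in Yawa. In heads no group mean of this member exceeded 1.49 RPM. The call was lost without the 3 low Yawa heads (-0.61, adjusted p = 0.183) or any 1 of them, and without EGA Bellaroi CG flag leaf 2b (adjusted p = 0.0569). Over all alternatives its adjusted p was 0.0208 to 0.999. Beside tolerance and treatment the fit held only tissue, with no term for plant or genotype. Head and flag leaf of a plant thus entered as separate samples, so the p-values of this interaction may be too small for every sequence. No alternative with the plant as a block was run for it.

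No member was called for a difference of the water deficit response between the tissues (0 of 8, with 0 unadjusted), nor was any of the 110 sequences (0%, with 3 unadjusted). That fit had no term for the plant and was not rerun with the plant as a block, so smaller differences may have been missed. Between seasons 0 of 16 tests of members were called (4 unadjusted), against 5.45% of all tests (3.64% higher, 1.82% lower). The 4 unadjusted ones were flag leaf values lower in season 2 than in season 1: Gma-miR167g (-0.39), Zma-miR167e (-0.49), Zma-miR167b (-0.51) and Ath-miR167d (-0.62), with adjusted p from 0.0959 to 0.110.

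Other miRNAs of the auxin response were set beside the family. They are miR160, which targets other auxin response factors, and miR393, which targets auxin receptor mRNAs. They came to 6 listed sequences. Between tissues they were called in 13 of 48 tests (17 unadjusted), 5 of them higher in heads and 8 lower, against 62.5% of all tests (10.9% higher, 51.6% lower). Sbi-miR160f was lower in heads in all 8 comparisons, with an average of -1.74, and Gma-miR160b (3 comparisons, average +0.63) and Ath-miR160a (2 comparisons, average +0.73) were higher. The median change of the 6 was -0.29, against -1.18 for the miR167 family and -0.98 for all sequences.

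Under water deficit all 6 were called lower in Yawa heads, where 55.5% of all sequences were, and none elsewhere, with a median of -1.75 there, against -1.11 for the miR167 family and -0.99 for all sequences. Without the 3 low Yawa heads 0 of the 6 were called there (0 unadjusted, median -0.034). In genotype comparisons 0 of 48 tests were called (4 unadjusted), against 4.89% of all tests. The interaction of tolerance and treatment called 4 of the 6 lower (median -1.11), where 25.5% of all sequences were called, against 1 of 8 and a median of -0.06 in the miR167 family and -0.48 over all sequences. Without the 3 low heads it called 0 of the 6 (4 unadjusted, median -0.70) and 2 of all 110 sequences.

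Across libraries Gma-miR167g and Zma-miR167e ranked most alike of all pairs of members in both tissues. Spearman's rho of Gma-miR167g with Zma-miR167e was 0.828 in heads and 0.921 in flag leaves, and with Zma-miR167j 0.075 in heads and 0.373 in flag leaves (48 libraries each). Zma-miR167e with Bdi-miR167e had 0.728 in heads and 0.758 in flag leaves. Outside the family the sequences most like the family sum within tissues were Ath-miR166b (mean rho of both tissues 0.591), Zma-miR166l (0.524) and Tae-miR156 (0.521), members of families that repress HD-ZIP III and SPL transcription factor mRNAs. Over all 96 libraries at once these became -0.133, 0.276 and 0.873, so only Tae-miR156 (head minus flag leaf -2.58) also followed the family between tissues. All libraries share the scaling to their own depth, and these values are descriptions.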

How the data were processed

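RNA of heads and flag leaves, taken as 48 plants by their labels, was gel-purified for small RNA and made into 96 libraries with the NEBNext kit. The authors trimmed the reads in CLC Genomics Workbench, matched them to mature plant miRNAs of miRBase with up to 2 mismatches, divided by all small RNA reads of a library and deposited RPM values for sequences above 2 RPM in at least 48 libraries, a filter that 110 of 110 sequences met. Since the denominator is all small RNA, a shift in other small RNAs moves every value. The table of hairpin-predicted miRNAs was not used, and 0 columns lacked a sample.

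Values were taken as log2(RPM + 1) and tested over all 110 sequences with limma 3.58.1 (R 4.3.3, trended variances, Benjamini-Hochberg adjustment per comparison, two-sided, threshold 0.05). Tissue comparisons used all libraries, and comparisons within a tissue used that tissue. Duplexes were computed with ViennaRNA 2.7.2, other values with Python 3.11.15, pandas 2.3.3 and SciPy 1.17.1. The fit was tested on simulated data. Alternatives were other pseudocounts, a filter on low values, median-ratio scaling, single seasons, blocks, other variance settings, the fold criteria of the study and left-out libraries. Depth was read from RPM steps as the largest value of 1 read that fits a library (10451 values above 0, 100% within 0.01 reads of a whole number).

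Head and flag leaf were paired by genotype, treatment and replicate label. The deviations of such a pair from the group means correlated by 0.001 to 0.821 (median 0.512, above 0.1 in 43 of 48 plants). The members and lists were chosen with earlier results of these data known. Named were all 8 members, the 3 other sequences most like the family sum, and auxin-list sequences where a count of 5 or fewer was given.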

Additional observations from a re-analysis of the deposited data

Results flagged for a closer look

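In 23 of 144 groups of 6 libraries, 1 library stood apart from the other 5 by a gap of over 0.625 of the group's range, where chance gives about 1 in 20 for independent normal values. RPM values are skewed, and the measures share libraries and enter the family sum, so the share that chance gives here is not known. Ath-miR167d gave 7 of them, all high, and they fall in 4 plants. They were 318 RPM in the EGA Bellaroi WG flag leaf 1a and 108 RPM in the head of that plant, 467 RPM in the Tjilkuri CG flag leaf 2a and 221 RPM in its head, 118 RPM in the Tamaroi CG flag leaf 1a and 92.8 RPM in its head, and 286 RPM in the Tamaroi WG flag leaf 1a.

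Zma-miR167a stood apart with 14.1 RPM in the EGA Bellaroi CG flag leaf 2b, 25.9 RPM in the EGA Bellaroi CG head 1b, 2.08 RPM in the Tjilkuri WG flag leaf 2b, 1.48 RPM in the Tjilkuri CG flag leaf 2c and, at the low end, 8.76 RPM in the Tjilkuri WG head 1c. Bdi-miR167e stood apart with 528 RPM in the Tamaroi CG flag leaf 1b, and at the low end with 5.37 RPM in the Tamaroi CG head 1b, of the same plant, and 40.8 RPM in the EGA Bellaroi WG flag leaf 1c. Zma-miR167e had 375 RPM in that Tamaroi CG flag leaf 1b and 163 RPM in the Tamaroi WG head 1b.

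Osa-miR167e had 36.6 RPM and Zma-miR167j 78.3 RPM in the same library, the Tamaroi WG flag leaf 2c. Osa-miR167e had 19.4 RPM in the Tjilkuri WG flag leaf 2b, and Zma-miR167b 177 RPM in the Yawa CG flag leaf 1b. In the EGA Bellaroi WG head 2c Gma-miR167g had 2324 RPM and the family sum was 2686 RPM.

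The interaction test of limma called Osa-miR167e, with -0.70 on the log2 scale for tolerant minus sensitive genotypes (adjusted p = 0.0498). It called 25.5% of all sequences, all of them lower. The adjusted p of Osa-miR167e was 0.0208 to 0.999 over the alternatives, and the call was lost without the low Yawa heads. In flag leaves its change under water deficit was +0.52 in Tamaroi, +0.48 in EGA Bellaroi, +0.48 in Tjilkuri and -0.88 in Yawa. In heads no group mean of this member exceeded 1.49 RPM. The change there was -0.45 in Tamaroi, -0.49 in Yawa, +0.70 in EGA Bellaroi and -0.15 in Tjilkuri. Both organs of a plant entered the interaction test as separate samples, so its p-value may be too small.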

How the results depend on the processing

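The 48 tissue calls over all 8 members, 16 of them set by the low-value filter, became 33 to 57 under the alternatives and 44 to 50 with a replicate left out. The 5 water deficit calls became 1 with median-ratio scaling, 0 in season 1, 0 with only the groups compared, 0 without the 3 low Yawa heads together (4 without any 1 of them), 13 by the study's fold criteria, and 0 to 6 with a replicate left out. The 3 genotype calls became 0 with scaling, 0 in season 1, 5 in season 2, 0 with only the groups compared, 0 without those heads, 8 by the fold criteria, and 0 to 6 with a replicate left out. The genotype-pair difference (0 calls) gave 1 when only sequences averaging 10 RPM were kept and 0 to 5 with a replicate left out. The tolerance and treatment interaction (1 call) gave 0 with pseudocount 5, with the 10 RPM filter, with season as a covariate, in season 1, and without the low Yawa heads, 3 in season 2, and 0 to 1 with a replicate left out. Relative to Zma-miR167e, the 24 tissue calls (9 without Zma-miR167a and Osa-miR167e) became 10 with the 10 RPM filter, and the 0 water deficit calls became 3 with pseudocount 5, 3 in season 2, and 0 to 3 with a replicate left out. The 10 RPM filter removes Zma-miR167a and Osa-miR167e from every test. The interaction call, which was on Osa-miR167e, could therefore not be kept under it, and its 0 is no check of that call. The relative tissue calls of these 2 members are likewise absent from the 10. Fewer sequences are tested under that filter and fewer samples in single seasons, and otherwise the cause was not tested.

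Signs turned for Bdi-miR167e in Yawa heads (+0.15) and in Yawa against Tjilkuri heads (+0.0845) and for Zma-miR167b there (+0.47), all without the 3 low heads, and with scaling for Gma-miR167g in Yawa heads (+0.12) and Zma-miR167b between tissues (+0.12). The single results of named members were each rerun under the alternatives, and of the other reruns 265 kept the call and 81 lost it. By ungapped pairing 2 of the 4 3p members exceeded every sequence outside the family, and with bulges 4 did.

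With the plant as a block, the replicate block fit called 57 of 64 tissue tests. Replicate labels across groups share only a name (median correlation 0.089), and that replicate block gave 51 tissue, 5 water deficit, 2 genotype and 0 interaction calls. Count tests were not run. Depth limits Osa-miR167e in heads and Zma-miR167a in flag leaves, where a count of 0 allows up to 4.92 RPM and 1.11 RPM.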
